A study of Mus musculus with 30 samples.

Results

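Immediate early genes were followed in 5 tissues of newborn mice with and without ERRγ, the orphan nuclear receptor encoded by Esrrg. The set comprised 10 genes, Fos, Fosb, Jun, Junb, Egr1, Ier2, Dusp1, Zfp36, Atf3 and Klf6. Every probe set that the array annotation assigned to 1 of these symbols was taken, which gave 10 of 12393 named genes and 13 of the 22626 probe sets analysed: 3 for Klf6, 2 for Jun and 1 for each of the other genes. The groups were wild-type and ERRγ null brain, kidney, stomach, liver and salivary tissue, with 3 Affymetrix MOE430A arrays in each of the 10 groups and 30 arrays in all. The mice were neonatal, of a mixed SV129/C57BL/6 background and of a sex given as unknown. The labels do not say how the null allele was made or whether a group's 3 arrays are separate animals, so p-values measure the spread among these samples alone, some of it perhaps technical. Values are log2 MAS5 signals, a measure of hybridisation in which a step of 1 is a doubling.

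Immediate early genes are switched on within minutes of a stimulus without new protein synthesis, through kinase cascades that end on factors such as SRF, the ternary complex factors and CREB. Fos and Jun family proteins pair through leucine zippers to form AP-1, and Egr1 and Klf6 are zinc finger activators. Dusp1, a phosphatase that inactivates MAP kinases, and Zfp36, which binds AU-rich elements and speeds decay of mRNA, act as brakes on the same response. Both brakes are also known to respond to glucocorticoids.

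Promoter sequence is shown for Fos, Dusp1, Zfp36 and Klf6, the 4 genes that rose on average over the tissues, and for Jun, the partner of Fos, which did not. RefSeq windows on build GRCm38.p6 were matched for 8 of the 10 symbols, and Egr1 and Ier2 were not matched. Each stretch below gives the 250 bases before the annotated start, 5′ to 3′ on the gene's strand, with the motifs found in capitals.
Fos: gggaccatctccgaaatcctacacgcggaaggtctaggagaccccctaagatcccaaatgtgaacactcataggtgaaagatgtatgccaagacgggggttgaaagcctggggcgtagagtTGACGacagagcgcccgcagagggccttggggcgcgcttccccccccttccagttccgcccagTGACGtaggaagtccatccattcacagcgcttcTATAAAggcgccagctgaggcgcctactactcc
Dusp1: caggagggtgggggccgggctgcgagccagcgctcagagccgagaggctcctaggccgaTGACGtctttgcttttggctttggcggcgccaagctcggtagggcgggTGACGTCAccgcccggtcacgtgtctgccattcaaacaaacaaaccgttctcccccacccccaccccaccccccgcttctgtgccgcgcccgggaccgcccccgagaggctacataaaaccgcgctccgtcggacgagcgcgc
Zfp36: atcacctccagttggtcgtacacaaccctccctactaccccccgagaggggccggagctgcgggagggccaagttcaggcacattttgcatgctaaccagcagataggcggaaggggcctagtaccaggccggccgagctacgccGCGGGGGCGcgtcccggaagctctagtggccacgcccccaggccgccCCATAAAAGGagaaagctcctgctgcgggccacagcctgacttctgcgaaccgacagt
Klf6: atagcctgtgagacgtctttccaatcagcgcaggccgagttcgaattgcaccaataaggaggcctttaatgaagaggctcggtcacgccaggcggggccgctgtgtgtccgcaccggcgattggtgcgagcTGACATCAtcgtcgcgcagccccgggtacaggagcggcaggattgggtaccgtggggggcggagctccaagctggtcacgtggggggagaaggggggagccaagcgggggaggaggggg
Jun: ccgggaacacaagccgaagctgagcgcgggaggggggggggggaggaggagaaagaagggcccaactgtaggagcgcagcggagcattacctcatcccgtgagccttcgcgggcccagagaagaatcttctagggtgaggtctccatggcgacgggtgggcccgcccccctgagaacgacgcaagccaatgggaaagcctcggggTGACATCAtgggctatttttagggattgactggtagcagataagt
The stretches lie at chr12:85473640-85473889 (plus strand) for Fos, chr17:26508473-26508722 (minus strand) for Dusp1, chr7:28379229-28379478 (minus strand) for Zfp36, chr13:5861239-5861488 (plus strand) for Klf6 and chr4:95052223-95052472 (minus strand) for Jun, each directly before its gene. Both strands were searched. The cAMP response element TGACGTCA was found once, in Dusp1 from 143 to 136 bases before the start, and in 1.55% of all 32851 windows of this length. Its core TGACG, which the full element contains on both strands, was found in Fos at 129 and at 66 bases before the start, in Dusp1 also at 191, and in Fosb, Junb and Atf3, against 17.8% of all windows. The related site TGACATCA, bound by Jun and ATF proteins, was found in Jun at 45 and in Klf6 at 119 bases before the start, against 2.93% of all windows. Zfp36 held a CArG box, the SRF element, at 58 bases and the EGR site GCGGGGGCG at 105 bases before the start, motifs present in 1.47% and 2.57% of windows. The EGR site was also found in Fosb. Fos had the TATA box TATAAA at 33 bases before the start (12.4% of windows). The AP-1 site TGANTCA (6.75% of windows), the ERR element TCAAGGTCA (0.387%) and the palindromic glucocorticoid response element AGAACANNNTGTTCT (0.0091%) were not found in the 8 windows. A match describes letters only.

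Esrrg, the targeted gene, had 1 dim probe set, with wild-type signals of 5.89 to 6.64 and null signals of 6.02 to 6.76. Its place relative to the deleted part is unknown here, and it checks nothing about genotype. Null stomach arrays were higher, at 6.39 to 6.56 against 5.93 to 6.03 (limma, adjusted p = 0.0312). Array medians lay between 5.80 and 6.08. In wild-type arrays the tissue markers Snap25, Umod, Alb and Bpifa2 stood at or above 9.89 in brain, 10.49 in kidney, 12.89 in liver and 12.88 in salivary tissue. Wild-type stomach held the proton pump gene Atp4a at or above 10.36, but null stomach read 5.33 to 5.58, no higher than the maximum of the other tissues (5.95). The gap from 3′ to 5′ control probe sets, averaged over Gapdh and Actb, widens as RNA degrades. In stomach it was 2.09 ± 0.43 for wild-type and 3.22 ± 0.34 for null arrays (SD, n = 3). In the other 4 tissues this average differed by 0.19 or less between genotypes. The Gapdh gap alone did not overlap in liver, at 4.25 to 4.81 in wild-type and 3.91 to 4.16 in null arrays. Wild-type stomach arrays spanned 5.93 to 11.90 for Alb, with replicates 2 and 3 high. Xist, transcribed from the inactive X chromosome, was low in wild-type replicate 3 and null replicate 1 and high in the others, in all 5 tissues.

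Fos, the prototype of the family, was higher in null stomach, liver and salivary tissue. In wild-type mice its level was highest in stomach (8.31 ± 0.32, SD, n = 3), followed by salivary tissue (6.92 ± 0.16), brain (6.52 ± 0.09), liver (5.99 ± 0.41) and kidney (5.92 ± 0.55). Only liver and kidney overlapped in that order.

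In stomach Fos read 8.50, 8.49 and 7.94 in wild-type arrays and 9.81, 9.32 and 10.11 in null replicates 1, 2 and 3, and the groups did not overlap. The rise was 1.44 ± 0.22 on the log2 scale, 2.71-fold (SE; limma, adjusted p = 0.00422). In liver it read 6.38, 5.57 and 6.02 against 8.68, 6.86 and 8.20 in null arrays, all 3 above every wild-type array and the second much lower than the other null arrays. This rise was 1.92 ± 0.41, 3.79-fold (limma, adjusted p = 0.026). In salivary tissue the values were 6.99, 6.74 and 7.03 in wild-type arrays and 9.11, 7.68 and 8.27 in null arrays, again with no overlap, a rise of 1.43 ± 0.31 (limma, adjusted p = 0.0243). In a tissue homogenate a higher level per cell and more cells that carry the transcript cannot be told apart.

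Kidney Fos read 6.52, 5.44 and 5.79 in wild-type arrays and 7.42, 6.42 and 8.14 in null arrays. Null replicate 2 lay below 1 wild-type array, and the difference of 1.41 ± 0.39 did not pass (limma, adjusted p = 0.143). Without that null array it was 1.86 and passed (limma, adjusted p = 0.0245). In brain the wild-type values were close together at 6.62, 6.49 and 6.46, while null arrays read 8.92, 6.05 and 6.38. A single null brain array was high and the other two lay below all wild-type arrays, so the mean difference of 0.59 ± 0.59 rests on null replicate 1 (limma, adjusted p = 0.743). That array also stood apart for markers of other tissues, with Bpifa2 at 7.99 (4.48 to 5.28 on the other brain arrays) and Alb at 7.46 (5.29 to 6.21). The part of this signal in the brain values was not tested.

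**Figure D1:**
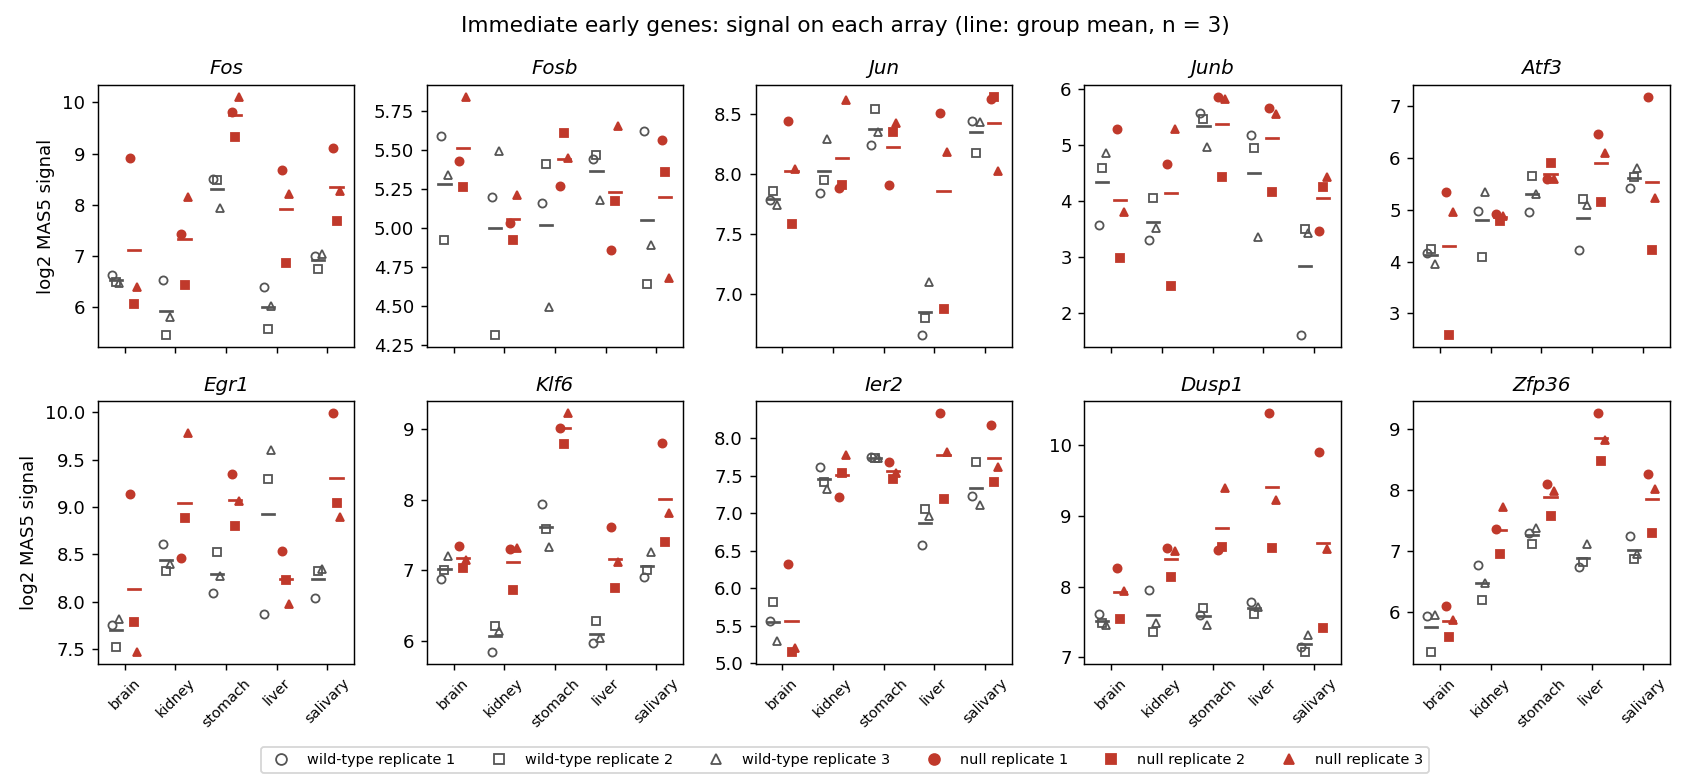
Log2 MAS5 signal (vertical axes, own scale per gene) of the brightest probe set of each gene in the 5 tissues. Open symbols are wild-type and filled symbols ERRγ null arrays, the shape gives the replicate number and lines are group means (n = 3). Fos, Dusp1, Zfp36 and Klf6 lie above wild-type in most null arrays outside brain, while Fosb and Junb scatter at low signal.

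Jun, the main AP-1 partner of Fos, did not pass in the main fit of any tissue. In a fit of all 30 arrays its brighter probe set passed in liver (limma, adjusted p = 0.0167). At its brighter probe set liver read 6.66, 6.80 and 7.10 in wild-type arrays and 8.51, 6.88 and 8.18 in null arrays. Null replicates 1 and 3 were high and replicate 2 lay among the wild-type values, and the difference of 1.0 ± 0.36 did not pass (limma, adjusted p = 0.134). Without null replicate 2 it was 1.49 and passed (limma, adjusted p = 0.00117). Outside liver the differences lay between -0.15 and 0.23. The dimmer probe set of Jun lay under the filter in liver, at 2.75 ± 0.66 in wild-type and 5.58 ± 1.90 in null arrays (SD, n = 3), with no overlap and the same order of null arrays. Wild-type Jun was lowest in liver, at 6.85 ± 0.22, and this was the 1 tissue whose range stood apart from its neighbour in the order.

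The other AP-1 members were dim. Fosb, a Fos relative known from brain, had wild-type means of 5.0 to 5.36 with overlapping ranges in all tissues. It passed the filter in 2 of 5 tissues, and its groups overlapped everywhere. Junb, a Jun relative that can restrain Jun, passed the filter in stomach alone, where the difference was 0.04 ± 0.38. Below the filter its null means were higher by 0.52 in kidney, 0.63 in liver and 1.20 in salivary tissue and lower by 0.32 in brain, with group means of 2.85 to 5.13. Atf3, a stress-induced bZIP factor, read 4.22, 5.21 and 5.09 in wild-type arrays and 6.47, 5.16 and 6.09 in null liver. Null replicate 2 again lay within the wild-type range, and the difference of 1.07 ± 0.39 did not pass (limma, adjusted p = 0.141), and it was 1.44 without that array. The wild-type mean of 4.84 lay under the liver filter level of 5.245, so Atf3 was tested there only through its null arrays. In salivary tissue Atf3 was 7.18 in null replicate 1 and 4.23 and 5.22 in the other null arrays, against 5.43 to 5.80 in wild-type.

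Both brakes on the response were higher. Dusp1, the MAP kinase phosphatase, had wild-type means of 7.18 to 7.70 over the 5 tissues, and only salivary tissue, the lowest, stood apart from its neighbour. In liver it read 7.79, 7.61 and 7.71 in wild-type arrays and 10.45, 8.54 and 9.22 in null arrays, a rise of 1.70 ± 0.39 or 3.25-fold (limma, adjusted p = 0.0322). In stomach it read 7.60, 7.70 and 7.46 against 8.52, 8.56 and 9.39, a rise of 1.24 ± 0.22 (limma, adjusted p = 0.00716). Neither tissue had overlapping groups. The liver call was lost without any 1 of the wild-type arrays or without null replicate 3 (limma, adjusted p = 0.0926 to 0.0996). Salivary values were 7.15, 7.08 and 7.32 in wild-type arrays and 9.91, 7.42 and 8.53 in null arrays. All null arrays were higher, replicate 2 only slightly, and the difference of 1.44 ± 0.49 did not pass (limma, adjusted p = 0.11). Without null replicate 2 it was 2.04 and passed (limma, adjusted p = 0.00749). Kidney Dusp1 read 7.96, 7.36 and 7.48 against 8.54, 8.13 and 8.51, without overlap and with a difference of 0.79 ± 0.18 (limma, adjusted p = 0.075). It passed without null replicate 2 (0.93; limma, adjusted p = 0.0378). In brain null replicate 1 was highest at 8.27 and the difference was 0.40 ± 0.17 (limma, adjusted p = 0.459). Over the 5 tissues 14 of 15 null arrays lay above all wild-type arrays of their tissue.

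Zfp36, which encodes the mRNA decay factor tristetraprolin, rose most in liver. There it read 6.74, 6.82 and 7.11 in wild-type arrays and 9.26, 8.47 and 8.83 in null arrays, a rise of 1.96 ± 0.21 or 3.90-fold (limma, adjusted p = 0.00268). The null arrays were closer to each other than for Fos or Dusp1. In stomach the values were 7.30, 7.11 and 7.38 against 8.10, 7.57 and 7.98, a rise of 0.62 ± 0.16 (limma, adjusted p = 0.0256). That call was lost without any 1 of the wild-type arrays or without null replicate 1 or 3 (0.51 to 0.68; limma, adjusted p = 0.0546 to 0.0824). Kidney values were 6.77, 6.19 and 6.47 against 7.36, 6.95 and 7.72, and salivary values 7.25, 6.86 and 6.95 against 8.27, 7.30 and 8.01. Groups did not overlap in either tissue, and differences of 0.87 ± 0.21 and 0.84 ± 0.25 did not pass (limma, adjusted p = 0.0977 and 0.0692), while both passed without null replicate 2 (1.06 and 1.12; limma, adjusted p = 0.0336 and 0.00759). Brain differed by 0.11 ± 0.23.

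Klf6, a zinc finger transcription factor, rose in 3 tissues at its brightest probe set. In stomach it read 7.94, 7.58 and 7.33 in wild-type arrays and 9.01, 8.79 and 9.22 in null arrays, a rise of 1.39 ± 0.18 (limma, adjusted p = 0.0023). In kidney the values were 5.85, 6.22 and 6.15 against 7.30, 6.73 and 7.32, a rise of 1.04 ± 0.19 (limma, adjusted p = 0.0403), a call lost without null replicate 1 or 3 or any wild-type array (limma, adjusted p = 0.107 to 0.133). In liver they were 5.98, 6.29 and 6.04 against 7.62, 6.75 and 7.12, a rise of 1.06 ± 0.23 (limma, adjusted p = 0.028). This call was also lost without null replicate 1 or 3 or any wild-type array (limma, adjusted p = 0.0682 to 0.0996). No group overlapped in these tissues, nor in salivary tissue, where 6.90, 7.01 and 7.26 stood against 8.80, 7.40 and 7.81 without passing (0.95 ± 0.31; limma, adjusted p = 0.0984). The 3 Klf6 probe sets did not give the same result. A dimmer one rose by 1.43 ± 0.15 in stomach (limma, adjusted p = 0.00122) but by no more than 0.51 elsewhere, and the third differed by 0.14 ± 0.14 in stomach and by 0.83 ± 0.25 in salivary tissue (limma, adjusted p = 0.0706). Its other differences were 0.27 in brain, 0.63 in kidney and 1.52 in liver, the last under the filter and not tested. Brain Klf6 read 6.88, 7.0 and 7.20 against 7.35, 7.04 and 7.15.

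Egr1, the zinc finger activator induced with Fos by SRF, rose in salivary tissue and stomach. In salivary tissue it read 8.04, 8.32 and 8.35 in wild-type arrays and 9.99, 9.04 and 8.89 in null arrays, a rise of 1.07 ± 0.26 (limma, adjusted p = 0.0389). In stomach the values were 8.09, 8.52 and 8.27 against 9.35, 8.80 and 9.06, a rise of 0.78 ± 0.17 (limma, adjusted p = 0.0134). Neither pair of groups overlapped. The salivary call was lost without any 1 of the wild-type arrays or without null replicate 1 (limma, adjusted p = 0.0539 to 0.129). In the fit of all 30 arrays both calls were lost (limma, adjusted p = 0.0551 in salivary tissue and 0.159 in stomach). In liver the wild-type arrays disagreed at 7.87, 9.30 and 9.60, null arrays read 8.53, 8.23 and 7.97, and the difference was -0.68 ± 0.38 (limma, adjusted p = 0.33). Wild-type replicate 1 sets this value: without it the difference was -1.21 and passed as a fall (limma, adjusted p = 0.0263). With the Gapdh control gap as a covariate the Egr1 liver value was 0.53, of opposite sign and not passing (limma, adjusted p = 0.572). Kidney Egr1 was 9.78 in null replicate 3 and 8.46 and 8.88 in the other null arrays, against 8.32 to 8.61, and brain Egr1 was 9.14 in null replicate 1 alone.

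Ier2, a small nuclear protein of the early response, did not pass in the main fit of any tissue. In the fit of all 30 arrays it passed in liver (limma, adjusted p = 0.0208). In liver it read 6.58, 7.05 and 6.96 in wild-type arrays and 8.33, 7.19 and 7.82 in null arrays, without overlap (0.92 ± 0.27; limma, adjusted p = 0.0767), and without null replicate 2 the difference was 1.21 and passed (limma, adjusted p = 0.00614). In stomach all null arrays (7.68, 7.46 and 7.54) lay below the closely grouped wild-type arrays (7.75, 7.73 and 7.73), a difference of -0.18 ± 0.11 (limma, adjusted p = 0.283). Such a separation downward was seen for 20.4% of all probe sets tested in stomach. In the other tissues its differences lay between 0.00 and 0.40.

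By tissue, the filter on low signal kept 9 to 12 of the 13 probe sets. In stomach 6 of 12 rose, where 11.2% of all tested probe sets did, and in liver 4 of 10, where 3.47% did. In salivary tissue 2 of 11 rose (3.5% of all tested), in kidney 1 of 9 (0.412%) and in brain 0 of 10 (0%), with 1 of 10 at an unadjusted limma p under 0.05. No member fell in any tissue, where 0%, 0.368%, 12.2%, 3.46% and 4.72% of all tested probe sets did in brain, kidney, stomach, liver and, last, salivary tissue. The median difference of the tested members was largest in liver (1.03) and salivary tissue (0.83), then kidney (0.63), stomach (0.51) and brain (0.25), beside medians of 0.01 to 0.03 over all tested probe sets. All null arrays exceeded all wild-type arrays for 6 tested members in stomach, 5 in liver, 7 in salivary tissue, 3 in kidney and 0 in brain, against 22.4%, 15.3%, 13.1%, 10.1% and 8.14% of all tested probe sets.

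These counts depended on single arrays. Leaving out null replicate 2, most often the lowest null array for these genes, raised the count to 7 in liver, 5 in salivary tissue and 4 in kidney. Where that array was the lowest, its removal raises the difference by arithmetic, so calls gained without it add no support. Leaving out null replicate 1 or 3 or any wild-type array lowered the count to 1 or 2 in liver, 0 or 1 in salivary tissue and 0 in kidney. Fos, for example, lost its liver call without any of those 5 arrays (1.54 to 2.12; limma, adjusted p = 0.0572 to 0.104). In stomach the count stayed between 5 and 6, but there the control 3′ minus 5′ difference moved with genotype. With the Gapdh difference as a covariate 0 members passed by limma in any tissue. Fitted stomach differences were then 1.26 for Fos, 1.5 for Dusp1, 1.51 for Klf6 and 0.29 for Egr1. Without the 2 wild-type stomach arrays rich in Alb, which leaves 1 wild-type array assumed to vary like the null ones, 0 passed in stomach, with Fos at 1.25 and Dusp1 at 1.22. In liver and salivary tissue the control difference averaged over Gapdh and Actb was smaller in null arrays, by 0.16 and 0.19. The Gapdh difference alone, which served as the covariate, was 4.51 ± 0.28 in wild-type and 4.06 ± 0.13 in null liver (SD, n = 3).

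**Figure D2:**
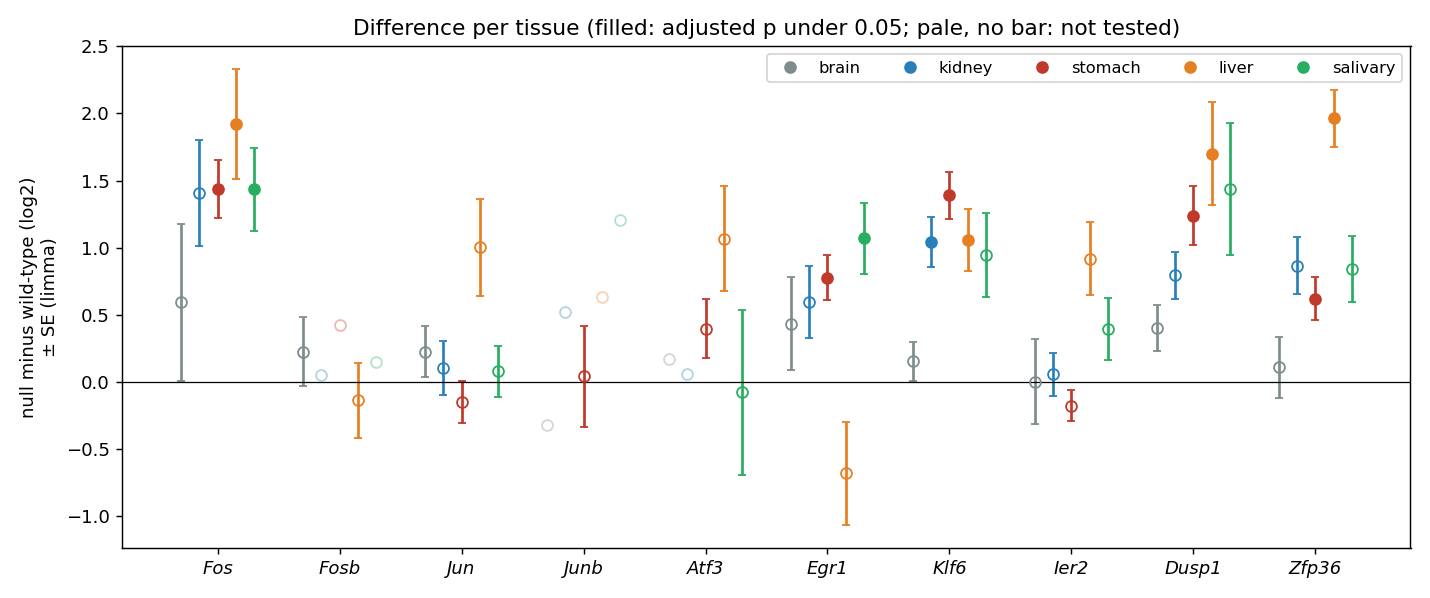
Null minus wild-type difference on the log2 scale (vertical axis) for the brightest probe set of each gene, coloured by tissue, with SE bars from limma. Filled circles passed at adjusted p under 0.05 and pale circles without bars were not tested. Fos, Dusp1 and Zfp36 have their largest differences in liver, and liver Egr1 is the lowest point at -0.68.

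The null arrays were not alike, and part of their order recurred across tissues. Averaged over the 10 genes, null replicate 1 stood above the wild-type mean of its tissue by 1.35 in salivary tissue, 1.44 in liver, 0.63 in stomach, 0.54 in kidney and 0.90 in brain. Null replicate 2 differed by 0.31, 0.34, 0.40, 0.13 and -0.40 in the same tissues, and null replicate 3 by 0.59, 1.06, 0.78, 0.98 and 0.11. Wild-type arrays lay between -0.21 and 0.14. Null replicate 2 was the lowest null array in each tissue, and in brain replicate 1, the array with raised Bpifa2 (7.99) and Alb (7.46), stood far above the other null arrays.

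Gene by gene, null replicate 2 had the lowest null value in 36 of 50 gene and tissue pairs (72%), and null replicate 1 the highest in 32 (64%). Over all tested probe sets the shares by tissue were 29.2% to 38.8% and 28.8% to 36.5%. Fos, Zfp36 and Klf6 were lowest in null replicate 2 in all 5 tissues, as were 1.98% of probe sets tested in all 5. Fosb and Jun were lowest there in 2 tissues and Egr1 in 1. Over the 15 null arrays, Dusp1 was above all wild-type arrays of the tissue in 14, Zfp36 and Klf6 in 13 and Fos in 12. Of the probe sets tested in all 5 tissues 3.61% reached 12 or more, and the median was 5.

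The labels do not state that arrays of the same number came from 1 mouse. The Xist pattern, low in the same number of each genotype in every tissue, and the deviations from group means bear on it. Over probe sets above the filter, deviations of 2 null arrays of the same number from different tissues correlated above 0 in 25 of 30 pairs (median 0.12), and those of different numbers in 21 of 60 (median -0.03), as a description in which deviations within a group sum to 0. Null replicate 1 was the null array of low Xist, so sex and array number cannot be told apart among null arrays. Averaged over the 10 genes, it was the highest null array in brain, liver and salivary tissue. In kidney and stomach null replicate 3, of high Xist, stood higher (0.98 and 0.78 against 0.54 and 0.63). The wild-type array of low Xist, replicate 3, averaged between -0.16 and 0.10 over the 10 genes.

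**Figure D3:**
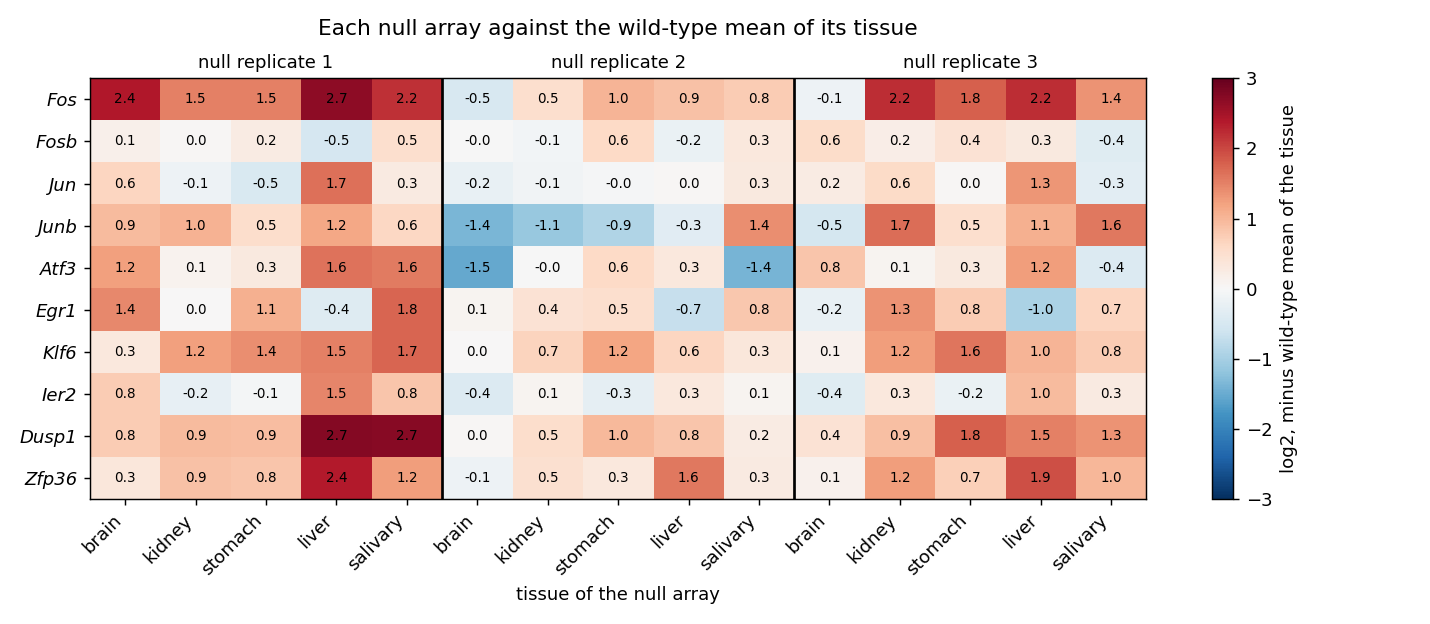
Each cell is 1 null array's log2 signal minus the wild-type mean of its tissue, for 10 genes (rows) and 15 null arrays (columns, grouped by replicate number), with red for higher and blue for lower. Dusp1 is highest, at 2.75 in liver replicate 1, and the bluest cell is Atf3 in brain replicate 2, at -1.54.

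Averaged over the 5 tissues in a fit of all 30 arrays, 6 of the 13 probe sets rose, beside 11.4% of all tested, and none fell (11.1% of all tested). Fos rose by 1.36 ± 0.24 (SE; limma, adjusted p = 0.000168), Dusp1 by 1.11 ± 0.18 (limma, adjusted p = 6.9e-05), Zfp36 by 0.88 ± 0.11 (limma, adjusted p = 2.37e-06) and Klf6 by 0.92 ± 0.11 at its brightest probe set (limma, adjusted p = 2.38e-06). All 3 Klf6 probe sets passed. Egr1 (0.44 ± 0.17), Jun (0.25 ± 0.13), Ier2 (0.24 ± 0.12), Junb (0.42 ± 0.30), Atf3 (0.32 ± 0.26) and Fosb (0.14 ± 0.14) did not. Egr1 did pass without brain null replicate 3, kidney null replicate 1, liver wild-type replicate 3 or salivary null replicate 3 (0.48 to 0.51; limma, adjusted p = 0.0325 to 0.05), and without the liver arrays it rose by 0.72 (limma, adjusted p = 0.00455). Jun passed without liver null replicate 2 (0.35; limma, adjusted p = 0.00933).

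Because arrays of one number may share a mouse, the 5 tissues of each number were also averaged first, leaving 3 against 3 values. The same 6 probe sets passed, beside 4.57% of all tested, with Fos at adjusted p = 0.0255, Dusp1 at 0.016, Zfp36 at 0.0126 and Klf6 at 0.00909 (limma). With the number as a random factor 6 passed too, beside 9.76% of all tested. The means of Fos, Dusp1, Zfp36, Klf6 and Egr1 did not overlap between genotypes, for which a two-sided exact permutation test gives p = 0.1, the smallest that 3 against 3 allows.

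Whether the difference itself varied between tissues was asked with an F test in the same fit. Zfp36 varied (limma, adjusted p = 0.00653), as did the dimmer Klf6 and Jun probe sets (limma, adjusted p = 0.0069 and 0.0245), beside 15.3% of all tested probe sets. The Zfp36 rise in liver exceeded that in brain by 1.85 ± 0.34, in stomach by 1.34 ± 0.34 and in salivary tissue by 1.12 ± 0.34 (limma, adjusted p = 0.00233, 0.014 and 0.0446), where 4.03%, 9.52% and 7.47% of all tested probe sets differed. Without the liver arrays Zfp36 no longer varied (limma, adjusted p = 0.317). Brightest Klf6 rose more in stomach than in brain by 1.24 ± 0.36 (limma, adjusted p = 0.0369; 6.78% of all tested). The dimmer Klf6 probe set rose more in stomach than in brain, kidney, liver and salivary tissue, by 1.11, 1.22, 1.15 and 0.92 (limma, adjusted p = 0.0105, 0.00876, 0.00547 and 0.0261). Of all tested probe sets 6.78%, 2.28%, 9.52% and 8.52% differed in these pairs. The dimmer Jun probe set differed more in liver than in kidney, stomach and salivary tissue (limma, adjusted p = 0.0312, 0.0139 and 0.0307). In these pairs 2.29%, 9.52% and 7.47% of all tested probe sets differed. The wild-type liver mean of 2.75 and null kidney mean of 5.25 of this Jun probe set lay under the filter, so the size is uncertain. Egr1 moved differently in liver and salivary tissue, by -1.75 ± 0.54 (limma, adjusted p = 0.0468; 7.47% of all tested), though its F test over the 5 tissues did not pass (limma, adjusted p = 0.13). For Fos and Dusp1 no difference between tissues passed (limma, F test adjusted p = 0.693 and 0.379), so brain is not shown to differ from the other tissues for them. The count of 3 became 5 without liver wild-type replicate 1 or liver null replicate 2. Egr1 varied without the former (limma, adjusted p = 0.0174), and Jun at its brighter probe set and Ier2 without the latter (limma, adjusted p = 0.00478 and 0.0498).

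Further genes of the pathway were counted from lists chosen for their role, with earlier results of these data known. Their counts stand beside shares of all tested probe sets that rose of 11.2% in stomach, 3.5% in salivary tissue, 3.47% in liver, 0.412% in kidney and 0% in brain, and, in the same order, shares that fell of 12.2%, 4.72%, 3.46%, 0.368% and 0%. Among other feedback inhibitors 6 of 19 tested genes rose in stomach, 6 of 20 in liver, 3 of 19 in salivary tissue, 1 of 19 in kidney and 0 of 19 in brain (4 at an unadjusted limma p under 0.05), and none fell. Rgs2, which dampens G protein signalling, stood at 6.76 ± 0.11 in wild-type and rose to 8.83 ± 0.57 in null liver (SD, n = 3; limma, adjusted p = 0.00404). Salivary Rgs2 rose too, reaching 9.55 ± 0.08 against 6.86 ± 0.60 (limma, adjusted p = 0.000983). Errfi1, an inhibitor of the EGF receptor, rose by 1.57 in kidney, 1.67 in stomach and 1.43 in salivary tissue. Nfkbia, the inhibitor of NF-κB, rose by 1.06 in stomach and 0.62 in salivary tissue. In liver Rgs1 (1.93), Socs3 (0.98) and the Zfp36 relative Zfp36l2 (0.91) rose too, and in stomach Dusp6 (0.94), a phosphatase selective for ERK.

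Of other immediate early transcription factors 4 of 16 rose and 1 fell in liver (3.47% and 3.46% of all tested), with the antiproliferative gene Btg2 (1.72), the apoptosis regulator Ier3 (1.10) and Myc (1.04) higher and Id2 (-1.18), a bHLH antagonist, lower. In stomach 4 of 16 rose, among them Klf4 (0.60) and Bhlhe40 (0.65), and in salivary tissue Btg2 rose (0.82) while Id2 (-1.23) and Ier5 (-0.60) fell. None of 15 passed in kidney or of 14 in brain, with 5 in each at an unadjusted limma p under 0.05. Among other AP-1 and bZIP genes, Jund, a Jun relative, rose in stomach (0.81) and liver (0.73), as did Maff, a small Maf factor, in stomach. Maff averaged 6.70 ± 0.95 on null and 4.64 ± 0.28 on wild-type stomach arrays (SD, n = 3), so it passed the filter level of 5.35 only through its null arrays and the size of its change is uncertain. These were 2 of 9 genes in stomach and 1 of 8 in liver, with 0 of 8 in brain, kidney and salivary tissue (2, 0 and 2 at an unadjusted limma p under 0.05).

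Of the secreted and effector genes 6 of 13 rose and 1 fell in stomach (11.2% and 12.2% of all tested), 3 of 12 rose and 1 fell in liver, 4 of 15 rose and 1 fell in salivary tissue, 2 of 12 rose in kidney and 0 of 12 in brain (2 at an unadjusted limma p under 0.05). Sgk1, a kinase that raises sodium channel activity, rose most in salivary tissue (1.90) and liver (1.85), and also in kidney (1.02) and stomach (0.97). Ccn2, a matrix protein induced by growth factors, rose by 1.30 in kidney and 1.06 in salivary tissue, where its relative Ccn1 rose by 1.37, and Ereg, an EGF receptor ligand, rose by 1.06 in stomach. Plk3, a stress kinase, read 2.87 ± 0.16 in wild-type and 8.87, 6.14 and 8.58 in null liver replicates 1, 2 and 3. Its wild-type mean lay under the liver filter level of 5.245, so it was tested only through its null arrays, its place among the 3 rests on that, and the size of the change is uncertain. Ornithine decarboxylase Odc1 fell in stomach (-0.81) and salivary tissue (-0.73), and Phlda1 fell in liver (-0.71). In liver Sgk1 and Plk3 had their lowest null value in replicate 2, as Fos had.

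Upstream genes were counted last. Of the MAP kinase cascade 2 of 14 rose and 1 fell in stomach and 1 of 15 rose in liver, counts near the shares of all tested probe sets there (11.2% and 12.2% in stomach, 3.47% in liver), with 0 of 15, 16 and 14 in brain, kidney and salivary tissue (0, 1 and 2 at an unadjusted limma p under 0.05). Mapkapk2, a kinase downstream of p38, fell by 1.24 on the log2 scale in stomach and rose by 0.95 in liver, and Braf (0.79) and Mapk9 (0.65), which encodes a JNK, rose in stomach. Of SRF, its partners and the CREB group 1 of 7 rose in salivary tissue, the coactivator Crebbp (0.62), and 0 of 8, 7, 7 and 9 passed in brain, kidney, stomach and liver (1, 1, 1 and 2 at an unadjusted limma p under 0.05). List medians lay between -0.03 and 0.08 for the MAP kinase cascade and between -0.06 and 0.38 for the promoter factors. Those of the feedback inhibitors lay between -0.01 and 0.40. In stomach the 3 lists, in that order, stood at 0.06, -0.01 and 0.40, and in liver at 0.08, 0.38 and 0.275.

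**Figure D4:**
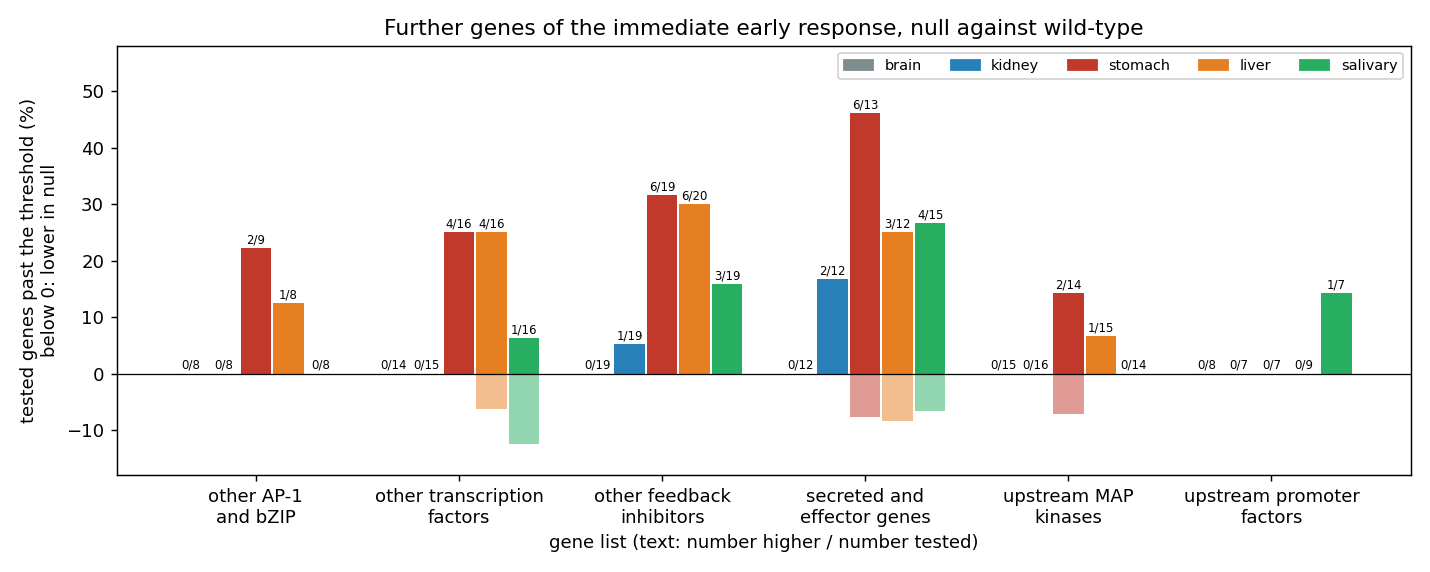
Share of tested genes of 6 lists (horizontal axis) that passed at adjusted p under 0.05, in percent, with bars above 0 for genes higher and pale bars below 0 for genes lower in null arrays, coloured by tissue. The numbers give genes higher of genes tested, such as 6 of 19 feedback inhibitors in stomach, where 11.2% of all tested probe sets rose, and 0 of 19 in brain (0%).

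The genes that varied with Fos between replicate arrays were sought by subtracting the mean of each of the 10 groups and correlating over the 30 arrays. Differences between group means then play no part, but groups of wide spread weigh more. In brain Fos lay 2.40, -0.47 and -0.14 from the wild-type mean in null replicates 1, 2 and 3. Wild-type brain arrays lay at 0.10, -0.03 and -0.06. Of 8508 genes the nearest was Cebpb (Pearson r = 0.86), a bZIP factor of acute phase and stress responses, followed by Ripk4 (0.80), Cebpd (0.80), another C/EBP factor, Plaur (0.80), the urokinase receptor, and Rbms1 (0.77). Stk17b, Pdlim5, Gatad2a, Tmprss2 and Itch came next at 0.74 to 0.76. Among the members Ier2 ranked 17th (0.72), Dusp1 29th (0.70), Zfp36 30th (0.69), Jun 142nd (0.60), Klf6 198th (0.57) and Egr1 331st (0.52). The arrays share their scaling and possibly their mice, so these values describe only this set.

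Markers of cells that could carry such transcripts were read beside the results. The 6 myeloid markers summed to linear signals of 9061 to 11544 in wild-type and 8368 to 9144 in null liver, 1037 to 1490 and 1421 to 1477 in stomach, and 1159 to 1644 and 1415 to 1552 in salivary tissue, and 0 of them passed by limma in any tissue (1 each in stomach and liver at an unadjusted p under 0.05). The 5 smooth muscle markers summed to 10144 to 11645 and 9882 to 11584 in stomach, with 2 lower. The 5 endothelial markers summed to 708 to 830 and 932 to 1129 in liver, higher in every null array, with 0 of 4 tested passing by limma but 2 at an unadjusted p under 0.05. In stomach they summed to 484 to 586 and 494 to 553, with 1 of 4 tested higher. The 4 fibroblast markers summed to 7046 to 7884 in wild-type and 8145 to 8476 in null stomach. Of them Col3a1 passed as higher there (0.38), while Pdgfra (0.24), Col1a1 (0.05) and Dcn (-0.11) did not pass. In liver the fibroblast sums overlapped (1939 to 2348 against 2185 to 2585, 1 higher). The 3 erythroid markers measured summed to 3245 to 3825 in wild-type and 4299 to 4743 in null liver. Alas2 passed there (0.51; limma, adjusted p = 0.0452), while Slc4a1 (0.27) and Hba-a1 (-0.63) did not. In salivary tissue 4 brown fat markers ranged from 1515 to 11561 in wild-type and 7813 to 18539 in null arrays, with 0 of 4 tested passing by limma but all 4 at an unadjusted p under 0.05. The part of these cells in the stomach, liver and salivary values was not tested.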

How the data were processed

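Log2 values of 22690 probe sets on 30 arrays were used as deposited. The authors made them with MAS5 per the submitters' processing notes, and the sources used here give neither its version nor its scaling target. Base 2 was settled from the values, since the 2% trimmed mean of the linear signals then lay between 149.988 and 150.008 on all arrays. After 64 control probe sets were set aside, probe sets with a mean over the 6 arrays of a tissue at or above its 40th percentile (log2 5.245 to 5.39) were tested with limma 3.58.1 in R 4.3.3 (lmFit, eBayes with a mean-variance trend), with Benjamini-Hochberg adjustment over all tested probe sets and a threshold of 0.05. One fit of 10 groups gave the average and the differences between tissues. A gene stands for its brightest probe set over the 30 arrays. From each further list up to 4 genes per tissue with the largest passing change are named. The members and lists were chosen with earlier results of these data known. The steps were tested on simulated data. MAS5 subtracts mismatch probes, which makes dim log2 signals noisy. Alternatives were other filters, scalings, floors, variance models, covariates, blocks and left-out arrays. The number of arrays limits the precision.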

Additional observations from a re-analysis of the deposited data

Results flagged for a closer look

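The null minus wild-type difference varied between the 5 tissues for Zfp36 (limma F test, adjusted p = 0.00653), for a dimmer Klf6 probe set (adjusted p = 0.0069) and for the dimmer Jun probe set (adjusted p = 0.0245). Zfp36 rose most in liver, that Klf6 probe set most in stomach, and the Jun probe set had its largest difference in liver, from a wild-type mean under the filter. The size of that Jun difference is uncertain. Between pairs of tissues, brightest Klf6 rose less in brain than in stomach (limma, adjusted p = 0.0369), and the Egr1 difference was -0.68 in liver and 1.07 in salivary tissue (limma, adjusted p = 0.0468 for this pair, 0.13 for the F test over 5 tissues).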

How the results depend on the processing

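The count of member probe sets that rose on average over the tissues, 6 in the main fit, stayed within 1.5 times under every alternative run. It lay between 6 and 8 without each array in turn, and the count in brain stayed at 0. Other counts moved. Without a filter kidney went from 1 to 0, liver from 4 to 1 and salivary tissue from 2 to 1. Without a mean-variance trend kidney had 0 and salivary tissue 1. With array weights salivary tissue had 4. With the Gapdh difference as a covariate kidney, stomach, liver and salivary tissue had 0, and the probe sets varying between tissues went from 3 to 1, as they did without the stomach or without the liver arrays. In the fit of all 30 arrays kidney had 0 and stomach 3 in place of 6, and Jun and Ier2 passed in liver (limma, adjusted p = 0.0167 and 0.0208). In salivary tissue that fit lost Fos and Egr1 (limma, adjusted p = 0.0667 and 0.0551). It gained Dusp1, Zfp36 and Klf6 there (limma, adjusted p = 0.0139, 0.0166 and 0.00995). Without the pair of Alb-rich wild-type arrays, which leaves 1, stomach Fos was 1.25 and Dusp1 1.22. Leaving out each array gave 0 to 4 in kidney, 5 to 6 in stomach, 1 to 7 in liver, 0 to 5 in salivary tissue, 0 to 0 in brain and 2 to 5 varying between tissues. With the replicate block salivary tissue had 1 and kidney, stomach and liver had counts of 1, 6 and 4. The kidney call was then Dusp1 (limma, adjusted p = 0.0432), while Klf6 did not pass there (limma, adjusted p = 0.0561). Correlations between same-numbered wild-type and null arrays lay between -0.24 and 0.14, over deviations that sum to 0 within a group. Whether the numbers pair the genotypes cannot be settled from them. No called difference changed sign. Signals near the filter level limit Fosb, Junb and Atf3.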
